A study of Mus musculus with 8 samples.

Results

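Tafa1, Tafa2 and Tafa5 encode small secreted proteins of the TAFA (older name FAM19A) family, and the 3 genes are those of the family whose symbols were looked up by name among the 14166 genes counted in nuclei of the embryonic mouse cortex. They were chosen by their cluster levels, since Tafa1 and Tafa2 led 1 of the deposited nucleus clusters, so their levels across clusters are given as a description with no test. The tissue was the dorsal telencephalon, the part of the forebrain that forms the cerebral cortex, from C57BL/6J mouse embryos at the E15.5 stage. There were 4 wildtype samples and 4 samples with a Pantr2-/- genotype, called knockout here. The level of Pantr2, which encodes a long noncoding RNA, was not analysed here. Nuclei were isolated from frozen tissue and profiled by 10x Genomics 3′ single-nucleus RNA-seq, which counts unique molecular identifiers (UMIs), 1 for each captured RNA molecule. The labels do not say whether the samples came from separate embryos or litters, so p-values measure only the spread between these samples.

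TAFA proteins are made mostly in the brain, carry conserved cysteines and resemble chemokines in their fold. TAFA1 to TAFA4 bind neurexins, presynaptic adhesion proteins, as these are made in the secretory pathway, and G protein-coupled receptors have been reported for several members. TAFA5 is the most divergent member of the family.

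On GRCm38, with GENCODE annotation, Tafa1 (ENSMUSG00000059187, there named Fam19a1) spans chr6:96113154-96657198 on the plus strand, 544.0 kb. Tafa2 (ENSMUSG00000044071, Fam19a2) spans chr10:123263996-123741204 on the plus strand, 477.2 kb, and Tafa5 (ENSMUSG00000054863, Fam19a5) spans chr15:87544299-87759364 on the plus strand, 215.1 kb. Tafa1 and Tafa2 each overlap 3 other annotated genes and Tafa5 overlaps 0, and 0 of the overlapping genes are in the count table. The sequences before their start sites are shown because the genes differ in how widely they were detected. They come from RefSeq on GRCm38.p6, plus strand, 5′ to 3′, with each CG dinucleotide in capitals. They cover chr6:96112904-96113153, chr10:123263826-123263995 and chr15:87544049-87544298, and for Tafa2 only the 170 bases that lie before the earliest annotated start are printed.
Tafa1: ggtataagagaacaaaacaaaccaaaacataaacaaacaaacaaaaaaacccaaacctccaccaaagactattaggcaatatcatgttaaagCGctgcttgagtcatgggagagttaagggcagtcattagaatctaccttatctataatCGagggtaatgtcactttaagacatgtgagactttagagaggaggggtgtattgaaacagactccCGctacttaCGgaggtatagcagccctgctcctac
Tafa2: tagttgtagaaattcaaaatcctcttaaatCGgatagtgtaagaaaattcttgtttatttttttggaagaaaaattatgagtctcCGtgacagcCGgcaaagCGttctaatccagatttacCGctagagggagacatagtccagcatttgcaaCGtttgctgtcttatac
Tafa5: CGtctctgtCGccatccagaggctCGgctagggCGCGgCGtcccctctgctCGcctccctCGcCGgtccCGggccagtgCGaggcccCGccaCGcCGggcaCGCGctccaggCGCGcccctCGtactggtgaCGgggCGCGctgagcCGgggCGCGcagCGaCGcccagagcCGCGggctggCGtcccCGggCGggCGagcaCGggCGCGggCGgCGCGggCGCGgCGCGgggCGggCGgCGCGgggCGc
The Tafa1 sequence holds 4 CG and is 40.8% G or C, the Tafa2 sequence holds 6 CG and is 37.1% G or C, and the Tafa5 sequence holds 48 CG and is 83.6% G or C. Over 32851 windows of 250 bases before RefSeq starts, the median was 6 CG and 52.4% G or C. Windows with as few CG as that of Tafa1, or fewer, made up 44.4% of the total, and those with as few as that of Tafa5, or fewer, 99.85%. These counts describe the letters and were not related to the expression values by any test.

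The files held 67319 nuclei, 7280 to 10921 in a sample, with 20446698 to 34083796 UMIs in a sample and a median of 2570 to 2905 UMIs in a nucleus. Of 66806 different barcodes, 510 occurred in more than 1 library, which touched 1.52% of nuclei. The deposited nucleus tables give 7 clusters. By markers listed for the tissue, cluster 1 was upper-layer-like (Cux1, Cux2, Pou3f1), clusters 2 (Bcl11b, Fezf2, Ldb2, Sox5) and 3 (Tle4, Foxp2, Tbr1, Hs3st4) were deep-layer-like, cluster 4 was apical progenitor-like and cluster 5 intermediate progenitor-like. Clusters 6 and 7 had too few of any list's markers to be named. Cluster 6 was led by Tafa1, Tafa2, Nell1, Lingo2 and Hs6st3. Of 10 interneuron genes counted, 2 were markers of cluster 6, Sst at 16.3 and Nxph1 at 57.4 CPM (UMIs scaled to a common library total). Cluster 4 had 3 markers of that list. Gad1 and Gad2 averaged 4.11 and 13.3 CPM in cluster 6, and 2.84 to 6.04 and 10.4 to 31.7 CPM in the other clusters.

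Tafa1 was concentrated in cluster 6. In that cluster it stood at 5668, 5748, 6116 and 5106 CPM in wildtype samples 1 to 4, and at 7690, 6954, 6714 and 5507 CPM in knockout samples 1 to 4. In the other 6 clusters its mean over the wildtype samples lay between 45.7 ± 21.4 CPM (SD, n = 4) in cluster 2 and 160 ± 53.4 CPM in cluster 7. The order of the wildtype means after cluster 6 was cluster 7, 5, 4, 1, 3 and 2. Neighbours in that order lay within 1 SD of each other, other than cluster 4, at 106 ± 33.7 CPM, above cluster 1, at 57.8 ± 10.7 CPM. Of all Tafa1 UMIs in a sample, 88.2% to 91.7% came from cluster 6 in the wildtype and 80.0% to 92.2% in the knockout.

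Tafa2 was also highest in cluster 6 but was spread more widely. It stood there at 4653, 4080, 3905 and 4677 CPM in the wildtype samples and at 3778, 3713, 3575 and 5568 CPM in the knockout samples. Upper-layer-like cluster 1 came next, with a wildtype mean of 585 ± 109 CPM (SD, n = 4), followed by deep-layer-like clusters 2 with 479 ± 193 CPM and 3 with 202 ± 18.4 CPM. Clusters 1 and 2 did not differ beyond their spread, nor did clusters 5, 4 and 7, with means of 152, 139 and 132 CPM. Cluster 6 held 60.8% to 65.9% of the Tafa2 UMIs of a wildtype sample and 55.5% to 66.9% of those of a knockout sample.

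Tafa5 was lower and more even. Its wildtype mean was 288 ± 39.9 CPM (SD, n = 4) in cluster 6 and 138 ± 9.06 CPM in apical progenitor-like cluster 4. Clusters 7 (96.9 CPM) and 1 (95.2 CPM) did not differ beyond their spread, nor did clusters 2 (75.0 CPM) and 5 (74.8 CPM), and cluster 3 was lowest at 56.0 ± 2.99 CPM. A value of CPM is not corrected for gene length, so levels are compared here within a gene and not between genes.

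**Figure D1:**
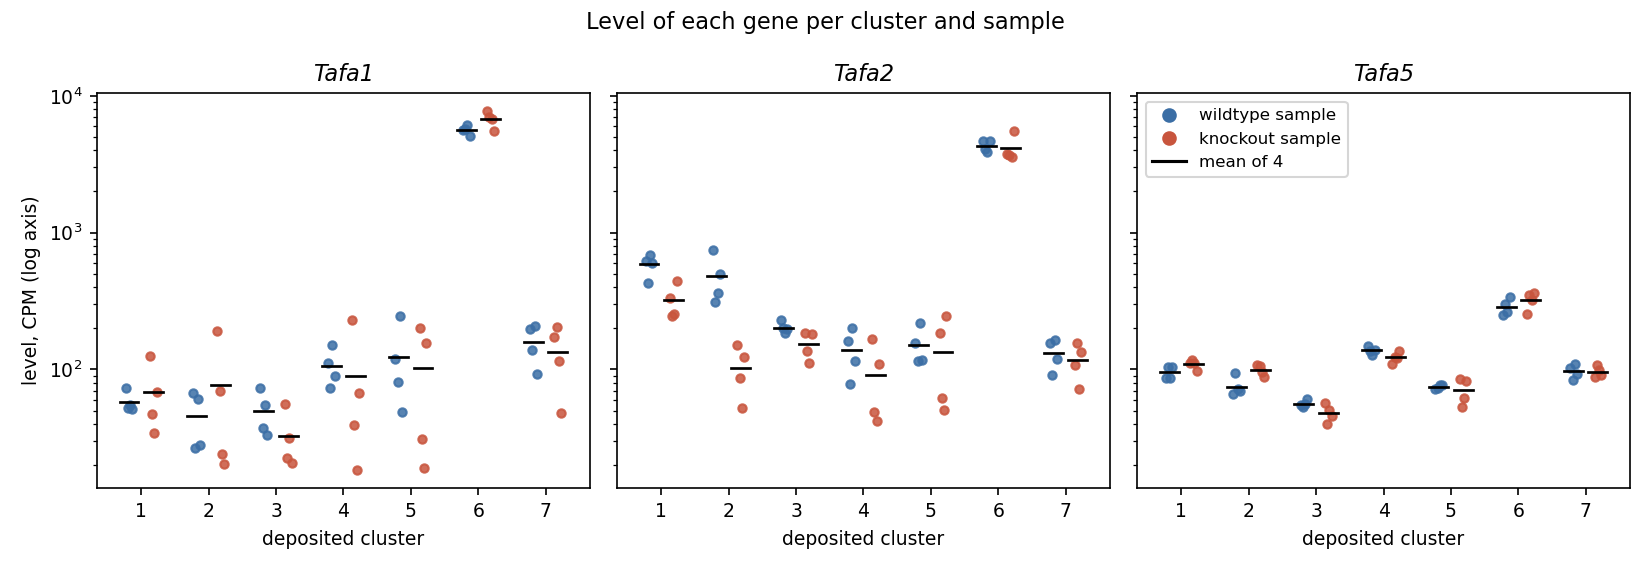
Level of Tafa1, Tafa2 and Tafa5 (CPM, log axis) in each of the 7 deposited clusters, with 1 point for each of 4 wildtype and 4 knockout samples and a bar at the mean. Cluster 6 stands highest for all 3 genes; the Tafa2 points of cluster 2 separate by genotype, from 312 CPM up in the wildtype and from 150 CPM down in the knockout.

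Counted by nucleus, the pattern was the same in kind. Each nucleus was thinned to 1400 UMIs so that shares could be compared at 1 depth. A Tafa1 UMI was found in 75.9% to 81.3% of cluster 6 nuclei in the wildtype samples and in 78.9% to 85.9% in the knockout samples. Elsewhere the Tafa1 share was 0.872% to 9.91% of nuclei. Without thinning, at the full depth of each nucleus, the mean Tafa1 shares in cluster 6 were 81.7% in the wildtype and 85.8% in the knockout. For Tafa2 the thinned shares in cluster 6 were 78.4% to 86.4% in the wildtype and 75.1% to 97.8% in the knockout. Tafa5 was found in 25.3% to 31.2% of cluster 6 nuclei in the wildtype, in 27.9% to 34.4% in the knockout, and in 15.2% to 18.1% of wildtype cluster 4 nuclei.

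The number of molecules in a positive nucleus differed between the genes. Positive nuclei of cluster 6 held on average 18.2 to 27.4 Tafa1 UMIs in a sample, with a maximum of 201 in a single nucleus. They held 12.3 to 17.3 Tafa2 UMIs but 1.77 to 2.31 Tafa5 UMIs. Wildtype Tafa2-positive nuclei held 4.28 to 5.18 UMIs in cluster 1 and 5.59 to 6.79 in cluster 2.

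The ratio of Tafa2 to Tafa1 UMIs was not the same in every cluster. It was 0.638 to 0.916 in cluster 6 of the wildtype samples, 8.29 to 12.6 in cluster 1 and 6.01 to 17.7 in cluster 2. In clusters 4, 5 and 7 of the wildtype it lay between 0.650 and 2.38. In cluster 3 it was 3.12 to 5.91, between these ranges.

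Tafa1 outside cluster 6 was carried by few nuclei. Nuclei with 5 or more Tafa1 UMIs numbered 42 to 169 in a sample, 0.555% to 2.50% of nuclei outside cluster 6, and gave 67.1% to 88.6% of the Tafa1 UMIs found there. Lingo2, another gene that led cluster 6, had a UMI in 53.8% to 86.7% of them and in 15.2% to 19.5% of the rest. Their median deposited hybrid score, the name a doublet caller gives to its score, was 0.189 to 0.304, against 0.0723 to 0.152 in the rest, higher in 8 of 8 samples. In cluster 6 the median score was 0.101 to 0.216, and in knockout sample 3 it was above theirs (0.209 and 0.189). The nuclei with 5 or more Tafa1 UMIs were also deeper, with a median of 2943 to 3837 UMIs against 2553 to 2888. The part of doublets in the low Tafa1 levels was not tested. Knockout sample 1 had the most such nuclei, and its Tafa1 level was the highest of the 8 samples in clusters 1 (125 CPM), 2 (191 CPM) and 4 (230 CPM).

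Over all nuclei 1 of the 3 genes, Tafa2, was lower in the knockout. It stood at 839, 619, 823 and 762 CPM in the wildtype samples and at 467, 344, 313 and 456 CPM in the knockout samples, with no overlap. The log2 fold change (knockout over wildtype) was -0.95 ± 0.14 (SE) with an edgeR-adjusted p of 0.00635, where 5.26% of 13926 genes were called at an adjusted p under 0.05. Tafa1 stood at 705, 628, 929 and 568 CPM in the wildtype and at 762, 475, 427 and 301 CPM in the knockout. The groups overlapped through knockout sample 1, and the log2 fold change of -0.53 ± 0.25 did not pass the test (edgeR-adjusted p = 0.290). Without knockout sample 1 it was -0.82 and passed (edgeR-adjusted p = 0.0475). Tafa5, at 105 to 114 CPM in the wildtype and 100 to 109 CPM in the knockout, had a log2 fold change of -0.06 ± 0.05 (edgeR-adjusted p = 0.570).

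The size of cluster 6 differed beside these levels. That cluster made up 10.4%, 9.42%, 12.7% and 9.37% of nuclei in wildtype samples 1 to 4 and 8.11%, 5.70%, 5.28% and 4.31% in knockout samples 1 to 4, with no overlap. Because Tafa1 and Tafa2 lead the cluster, this difference in its size was not tested. By UMIs the cluster's share was 11.3% ± 1.66 (SD, n = 4) in the wildtype and 6.18% ± 1.52 in the knockout. When each sample's cluster levels were weighted by the mean wildtype shares, the Tafa1 mean was 707 CPM in the wildtype and 814 CPM in the knockout, a log2 ratio of 0.20. The same weighting gave a log2 ratio of -0.34 for Tafa2 and 0.06 for Tafa5. This weighting was chosen after the data were seen and carries no test. Outside cluster 6, Tafa2 was 315 ± 60.0 CPM in the wildtype and 157 ± 47.9 CPM in the knockout, with no overlap, and Tafa1 was 77.4 ± 24.4 and 77.7 ± 62.2 CPM.

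**Figure D2:**
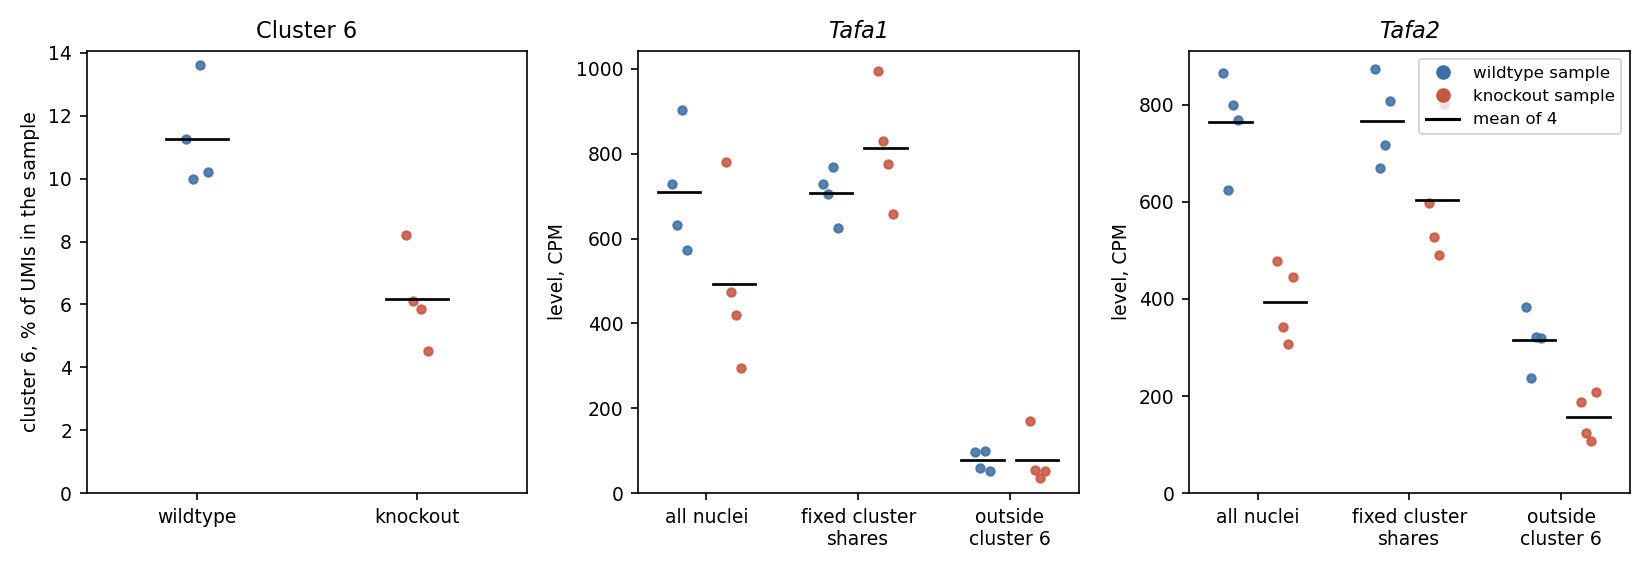
Left, share of each sample's UMIs in cluster 6 (percent); middle and right, Tafa1 and Tafa2 level (CPM) over all nuclei, weighted by fixed cluster shares, and outside cluster 6, with 1 point a sample and a bar at the mean of 4. The cluster 6 share does not overlap between genotypes (11.3% and 6.18% on average), and the Tafa1 means change order when the shares are fixed, from 709 and 492 CPM to 707 and 814 CPM.

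In cluster 6 itself 0 of the 3 genes passed the test. Tafa1 and Tafa2 lead this cluster, so nuclei low in them may have been placed elsewhere. Such nuclei are outside these fits. Tafa1 had a log2 fold change of 0.25 ± 0.10 (edgeR-adjusted p = 0.412), Tafa2 of -0.06 ± 0.13 (edgeR-adjusted p = 0.938) and Tafa5 of 0.16 ± 0.12 (edgeR-adjusted p = 0.746). Across all genes 0.779% were called in this cluster; 1 of the 3 had an unadjusted p under 0.05, as had 9.91% of all genes, and DESeq2 called 0. The Tafa1 groups overlapped only through knockout sample 4, at 5507 CPM. Between same-numbered samples Tafa1 was higher in the knockout in 4 of 4 pairs, and blocking on that pairing did not bring it past the threshold (log2 fold change 0.24, edgeR-adjusted p = 0.112).

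Within single clusters, Tafa2 was called lower in upper-layer-like cluster 1 and deep-layer-like cluster 2. In cluster 2, Tafa2 stood at 744, 312, 363 and 495 CPM in the wildtype samples and at 150, 86.5, 52.4 and 124 CPM in the knockout samples. The groups did not overlap, and the log2 fold change was -2.23 ± 0.30 (edgeR-adjusted p = 0.000410), where 9.11% of 11538 genes were called and 2 of the 3 members. In cluster 1 it stood at 620, 431, 686 and 604 CPM in the wildtype and at 334, 245, 256 and 442 CPM in the knockout. These groups overlapped between wildtype sample 2 and knockout sample 4, and the log2 fold change was -0.88 ± 0.17 (edgeR-adjusted p = 0.00697), with 1 of the 3 members and 4.84% of 11664 genes called. The share of nuclei with a Tafa2 UMI, thinned, averaged 17.9% in the wildtype and 5.71% in the knockout in cluster 2, and 25.7% and 16.0% in cluster 1. Tafa2-positive nuclei of cluster 2 also held fewer molecules, 5.59 to 6.79 in the wildtype and 2.53 to 4.11 in the knockout.

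The make-up of these clusters differed between genotypes as well. The summed level of the upper-layer list in cluster 2 was 2690 to 4329 CPM in the wildtype and 1088 to 1636 CPM in the knockout. The deep-layer list was 8160 to 9844 CPM in the wildtype and 11238 to 13278 CPM in the knockout, and the subplate list 259 to 291 and 374 to 451 CPM. In cluster 1 the upper-layer list was 6129 to 7200 CPM in the wildtype and 3662 to 5315 CPM in the knockout, and the deep-layer list 2500 to 2981 and 3742 to 5111 CPM. The part of these shifts in the Tafa2 result was not tested. The nucleus tables place clusters 1 and 2 in 1 group of their own. With both clusters summed, a choice made after the data were seen, Tafa2 was 539 ± 132 CPM (SD, n = 4) in the wildtype and 212 ± 53.2 CPM in the knockout, with no overlap. The log2 fold change was -1.35 ± 0.19 (edgeR-adjusted p = 0.00127, 7.22% of 12678 genes called).

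In deep-layer-like cluster 3, 0 of the 3 genes passed the test, beside 3.36% of all genes. DESeq2 called 0 as well, and 3 of 3 had an unadjusted p under 0.05, as had 15.3% of all genes. Tafa2 was 184 to 228 CPM in the wildtype and 112 to 184 CPM in the knockout, adjoining without overlap, with a log2 fold change of -0.40 ± 0.13 (edgeR-adjusted p = 0.135). With the replicate number as a block Tafa2 passed (log2 fold change -0.42, edgeR-adjusted p = 0.0145). Tafa1 in this cluster, at -0.65 ± 0.29 (edgeR-adjusted p = 0.301), also passed with the block (edgeR-adjusted p = 0.00159). In clusters 4, 5 and 7, 0 of the 3 genes were called by edgeR or DESeq2 and 0 had an unadjusted p under 0.05, beside 4.29%, 1.77% and 1.03% of all genes called. Leaving out knockout sample 1 brought Tafa1 in cluster 4 past the threshold, at -1.36 (edgeR-adjusted p = 0.0387).

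Tafa5 rose in cluster 2. It stood at 65.7, 93.3, 71.7 and 69.1 CPM in the wildtype and at 107, 106, 96.5 and 88.5 CPM in the knockout. Wildtype sample 2 overlapped the knockout group, and the log2 fold change was 0.41 ± 0.11 (edgeR-adjusted p = 0.0286). The call was lost when any of wildtype samples 1, 3 and 4 or knockout samples 1, 2 and 3 was left out (edgeR-adjusted p of 0.0646 to 0.0923), and with clusters 1 and 2 together (0.30, edgeR-adjusted p = 0.0751).

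A single test asked whether the genotype difference itself varied over the 7 clusters. It was called for Tafa2 (edgeR-adjusted p = 3.53e-05) and Tafa5 (edgeR-adjusted p = 0.0226) and not for Tafa1 (edgeR-adjusted p = 0.625), 2 of 3 members beside 9.12% of 12933 genes. The Tafa5 call was lost without wildtype sample 1, 3 or 4 or knockout sample 2 or 3 (edgeR-adjusted p of 0.0794 to 0.217). The Tafa2 estimates ran from -2.23 in cluster 2 to -0.06 in cluster 6, the cluster that Tafa1 and Tafa2 lead. Nuclei low in Tafa2 may have been placed outside cluster 6, and the test includes that cluster. For Tafa2 it therefore cannot tell a varying genotype difference from the placing of nuclei. No fit without cluster 6 was made.

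**Figure D3:**
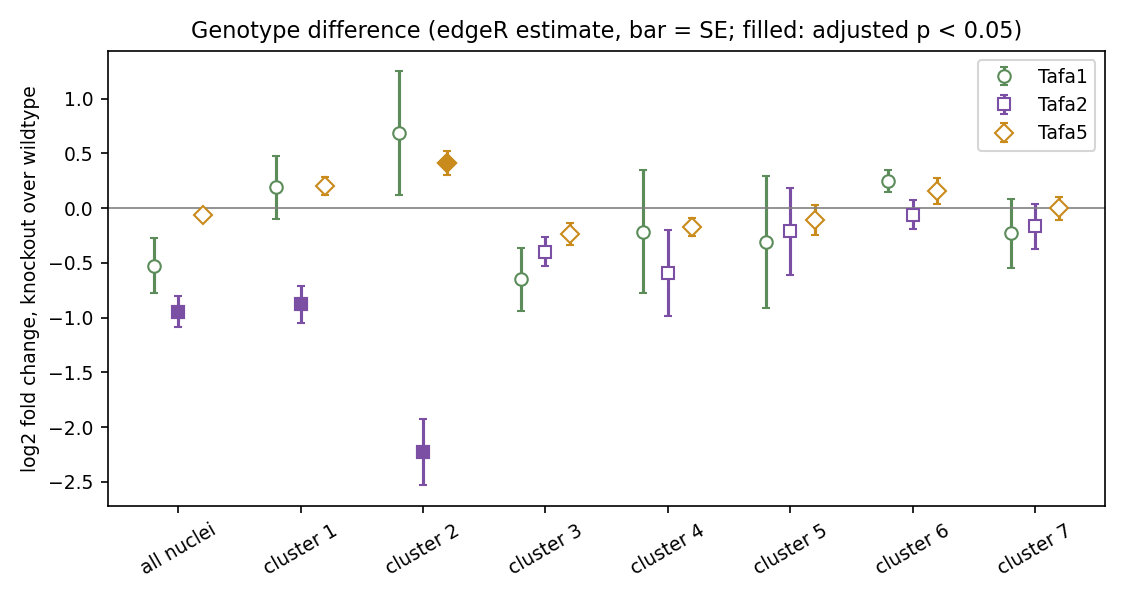
Log2 fold change (knockout over wildtype, edgeR estimate, bars are SE, 4 samples a group) of each gene over all nuclei and in each cluster; filled symbols have an adjusted p under 0.05. Tafa2 is filled over all nuclei (-0.95), in cluster 1 (-0.88) and in cluster 2 (-2.23), and Tafa5 in cluster 2 (0.41); no Tafa1 symbol is filled.

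Tafa2-positive nuclei of wildtype cluster 2 differed from the other nuclei of that cluster in more than Tafa2. These genes were chosen after their values were seen, and are described with no test of positive against negative nuclei. Unc5c, a netrin receptor, was higher in the positive nuclei by a mean log2 ratio of 4.01 over 4 samples, Kcnip4, a potassium channel-interacting protein, by 3.75, Fn1, which encodes fibronectin, by 3.38, Kif26b by 3.32 and Zdhhc2 by 3.16. Pcsk2, a prohormone convertase, had a mean log2 ratio of -2.01, Kctd8 of -1.85 and the zinc finger gene Zfp521 of -1.80. The upper-layer list summed to 5841 ± 599 CPM (SD, n = 4) in the positive and 2687 ± 459 CPM in the negative nuclei, and the deep-layer list to 6589 ± 763 and 9694 ± 506 CPM. In the knockout the upper-layer list was 2055 ± 576 CPM in the Tafa2-positive and 1287 ± 182 CPM in the negative nuclei. The deep-layer list there was 11145 ± 1261 and 12476.5 ± 852 CPM. Unc5c had a UMI in 32.7% ± 5.99 of positive and 5.22% ± 1.37 of negative wildtype nuclei, and in 5.12% ± 3.69 and 2.37% ± 0.384 of knockout nuclei. Median depth of the wildtype nuclei was 2923 to 3104 UMIs in the positive and 2719 to 3030 in the negative nuclei. In the knockout it was 2762 to 3234 and 2281 to 2961 UMIs.

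**Figure D4:**
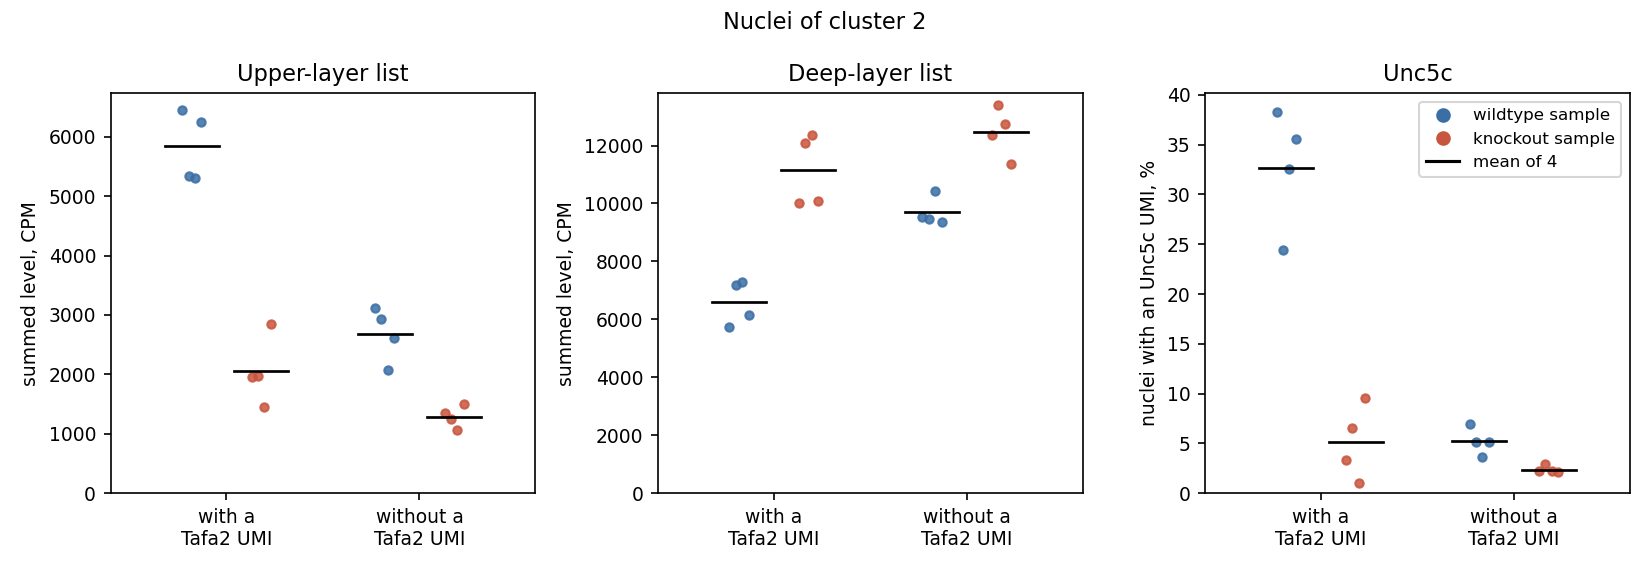
Nuclei of cluster 2 with and without a Tafa2 UMI at full depth, 1 point a sample and a bar at the mean of 4. Left and middle, summed level of the upper-layer and deep-layer lists (CPM); right, percent of nuclei with an Unc5c UMI. Wildtype positive nuclei have the highest upper-layer sums (5841 CPM on average) and Unc5c shares (32.7%).

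The genotype values of these genes in cluster 2 are given as a description, since the genes were picked in the wildtype nuclei that hold Tafa2 and Tafa2 itself was lower in the knockout. Unc5c stood at 75.1 to 196 CPM in the wildtype samples and at 8.28 to 15.9 CPM in the knockout samples. The log2 fold changes of the 5 highest genes were -3.45 for Unc5c, -3.52 for Kcnip4, -1.26 for Fn1, -3.42 for Kif26b and -1.81 for Zdhhc2. Those of the 5 lowest were 0.31 for Pcsk2, 0.87 for Kctd8, 1.40 for Zfp521, -0.12 for Igfbp3 and 0.37 for Pcsk5. In cluster 1, picked the same way, the 5 highest genes were Gabrg3, Grin2a, Unc5c, Vat1l and Fn1, with log2 fold changes of -1.20, 0.65, -1.52, -1.23 and -0.36. The NMDA receptor gene Grin2a thus had the opposite sign to the other 4 there.

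Detection of the 3 genes in the same nucleus was summarised by an odds ratio pooled over the clusters, where 1 is no association. Pooling keeps out shared membership of a deposited cluster. Nuclei outside cluster 6 with 5 or more Tafa1 UMIs still enter within their clusters, and their part in the odds ratios was not tested. For Tafa1 with Tafa2 the odds ratio was 4.67, 5.93, 4.06 and 4.17 in the wildtype samples and 11.6, 4.19, 4.46 and 11.3 in the knockout samples. Knockout samples 1 and 4 stood above all others, and the genotypes were not separated (exact two-sided permutation p = 0.286, adjusted over 3 pairs 0.429). For Tafa1 with Tafa5 the ratios were 1.04 to 2.10 and 1.19 to 2.17 (exact permutation p = 0.800, adjusted 0.800). For Tafa2 with Tafa5 they were 1.23 to 1.67 in the wildtype and 1.68 to 2.02 in the knockout, with no overlap; without thinning the wildtype range, from 1.38 up, and the knockout range, up to 2.08, overlapped (exact permutation p = 0.0571, adjusted 0.171). After thinning, the test gave the smallest p the 70 arrangements of 8 samples can give, an exact permutation p of 0.0286, and adjusted over the 3 pairs it was 0.0857, which does not pass. With same-numbered samples as pairs, an alternative added after the data were seen, it was higher in the knockout in 4 of 4, and the exact sign-flip permutation p was 0.125, the smallest that 4 pairs can give. All 24 odds ratios were above 1.

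**Figure D5:**
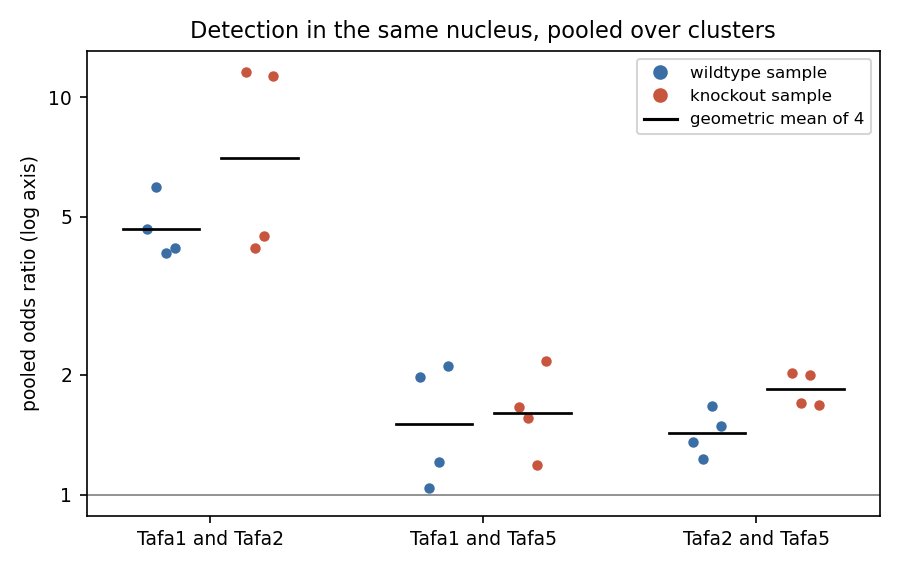
Odds ratio of detection in the same nucleus for each pair of genes, pooled over the 7 clusters, after thinning to 1400 UMIs (log axis; 1 point a sample, bar at the geometric mean of 4, grey line at 1). All points lie above 1, from 1.04 to 11.6, and the wildtype and knockout points of Tafa2 and Tafa5 do not overlap.

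Within cluster 6, at full depth, 70.8% to 78.3% of nuclei in the wildtype samples and 72.5% to 85.7% in the knockout samples held both Tafa1 and Tafa2. All 3 genes were found in 33.6% to 38.5% of wildtype and 33.2% to 44.6% of knockout nuclei. Nuclei with none of the 3 made up 2.45% to 3.79% in the wildtype and 0% to 4.03% in the knockout, the 0 being knockout sample 4 with 314 nuclei.

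Among nuclei of cluster 6, those with and without a Tafa5 UMI could be compared, since each sample had at least 100 of both; Tafa1 and Tafa2 left too few negative nuclei (as few as 49 and 7). The nicotinic receptor modulator gene Lypd6 was highest in Tafa5-positive nuclei by mean log2 ratio over 8 samples (1.24, from 0.49 to 2.39). It was followed by the glial glutamate transporter gene Slc1a3 (0.96), Cerk, which encodes ceramide kinase (0.88), Trabd (0.85) and the heparan sulfate enzyme gene Ndst3 (0.81). The lowest were the serotonin receptor gene Htr2c (-1.66), the kainate receptor gene Grik1 (-1.38), Nebl (-1.35), Col25a1 (-1.34) and the NMDA receptor gene Grin3a (-1.32). The ratio of Trabd ranged from 0.02 to 3.32 over the samples and that of Cerk from 0.27 to 1.78. Both rest on few molecules, a mean of 12.25 Trabd UMIs where 8.45 were expected, and 12.6 Cerk UMIs where 7.21 were. Cerk and Trabd lie 1.36 and 1.32 Mb from Tafa5 on chromosome 15. Distances of other genes were not looked up, so nothing is read from these positions. All 10 had the same sign in 8 of 8 samples, which the rule required.

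The genes whose pattern was most like each member were ranked by Pearson's r of log2(CPM + 1) over 28 wildtype profiles, 7 clusters in 4 samples, among 8950 genes with a mean of at least 10 CPM. The profiles share libraries and clusters, so r is a description. For Tafa1 these were Spint2 (0.92), Fblim1 (0.91), Gpr158 (0.90), Nell1 (0.90) and Acvr2a (0.89). For Tafa2 they were Fstl4 (0.94), Dennd4a (0.94), Hs6st3 (0.94), the latrophilin gene Adgrl3 (0.92) and Rnf157 (0.87). For Tafa5 they were Nsf (0.90), Eif2b3 (0.89), Rev3l (0.88), Dtna (0.86) and Tafa1 itself (0.86). All of these genes, like the members, had their highest wildtype mean in cluster 6, so a high r may reflect that cluster alone. By Spearman's rank correlation, Spint2, Fblim1, Gpr158, Nell1 and Acvr2a ranked 324, 177, 6, 10 and 937 for Tafa1. The genes named for Tafa2 ranked 2 to 57. For Tafa5, Tafa1 ranked 269 and the others 7 to 30. Few of them kept a place among the 5 in the knockout profiles (1 for Tafa1, 2 for Tafa2 and 1 for Tafa5).

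Of 20 listed relatives and partners of TAFA proteins, 13 were in the count table. Tafa4, the one other family member found there, averaged 8.09 CPM in wildtype cluster 6 and 1.26 to 1.76 CPM in the other clusters. Nlgn1, a postsynaptic partner of neurexins, was the 1 gene of the list called over all nuclei, falling by 0.46 on the log2 scale (edgeR-adjusted p = 0.0480). It also fell in cluster 2, by 0.60 (edgeR-adjusted p = 0.00420), and in cluster 3, by 0.50 (edgeR-adjusted p = 0.00554), and its difference varied between clusters (edgeR-adjusted p = 0.0229). Lrrtm4, another neurexin partner, rose in cluster 2 by 0.40 (edgeR-adjusted p = 0.00339). In clusters 1, 4, 5, 6 and 7, 0 of the 9 to 12 listed genes tested were called, and 4, 2, 1, 2 and 2 had an unadjusted p under 0.05, beside 16.5%, 16.0%, 9.95%, 9.91% and 9.68% of all genes. The calls were 1 of 13 listed genes over all nuclei, 2 of 10 in cluster 2 and 1 of 10 in cluster 3, beside 5.26%, 9.11% and 3.36% of all genes, and nothing particular to the list is read from them. The neurexin genes Nrxn2 and Nrxn3 were called in none of the fits, and over all nuclei their log2 fold changes were -0.13 and -0.77 (edgeR-adjusted p of 0.416 and 0.330). The median over the list was -0.13 over all nuclei and -0.11 in cluster 2, where the median over all genes was 0.00 in each.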

How the data were processed

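Single-nucleus RNA-seq was analysed from 4 wildtype and 4 knockout samples. The deposited matrices hold whole-number UMI counts per gene and nucleus, made with kallisto and bustools on mm10 per the submitters' processing notes; versions are not given in the sources used here. Clusters and the hybrid (doublet) score of each nucleus come from the authors' deposited nucleus tables, which give 1 library date for all 8 samples; all deposited nuclei were kept, and 1 gene with no symbol was left out. Sums of counts for each sample, in total and by cluster, were tested with edgeR 4.0.16 (TMM, filterByExpr, quasi-likelihood test, Benjamini-Hochberg over all genes tested, threshold 0.05) in R 4.3.3. The test between clusters had sample, cluster and their genotype terms. CPM of the 3 genes use TMM library sizes, except in the fixed-share values, which use total UMIs. The fits were tested on simulated data. Shares of nuclei with a UMI of the 3 genes by cluster, and odds ratios, were computed after thinning to 1400 UMIs unless stated (numpy 2.4.6, scipy 1.17.1). Log2 ratios of positive over negative nuclei also used thinned counts. Full depth was used for UMIs per positive nucleus and for Lingo2 and Unc5c shares. It was also used for list sums of nuclei with and without a Tafa2 UMI.

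A marker counted for the cluster where it was highest, if it reached 10 CPM there and 1.5-fold the median cluster, with at least 3 needed for a name. The genes named were the 3 members in every fit, the 5 most like each of them, the 5 highest and 5 lowest genes of positive nuclei of cluster 6 (at least 10 UMIs, 100 nuclei, same sign in each sample, 0.5 UMIs added), and the listed partners. Some listed genes are not reported here. The members and lists were chosen with earlier results of these data known. Same-numbered samples deviated together (r of 0.398, 0.185, 0.193 and 0.180, all over 0.1). Differently numbered samples had r from -0.356 to 0.287, the highest for wildtype sample 3 with knockout sample 4. The labels do not state a pairing. The main fits were unpaired, and pairing by number was an alternative. Alternatives were DESeq2 1.42.0, RLE scaling, no filter, a replicate block, leaving out each sample, and no thinning or thinning to 1000 UMIs. Intervals beyond the spread of samples were not computed.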

Additional observations from a re-analysis of the deposited data

Results flagged for a closer look

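Over 96 groups of 4 samples (levels, shares and odds ratios), 5 had a sample far from the other 3, and chance flags about 1 in 20. Tafa1 in cluster 1 was 73.7 CPM in wildtype sample 1 and 51.1 to 54.6 CPM in the others. Tafa2 in cluster 6 was 5568 CPM in knockout sample 4, which has the fewest cluster 6 nuclei (314), and 3575 to 3778 CPM in the other knockout samples. The share of cluster 4 nuclei with a Tafa1 UMI was 5.71% in knockout sample 1 and 1.49% to 2.20% in the others. The share of cluster 7 nuclei with a Tafa2 UMI was 8.10% in knockout sample 2 and 5.65% to 5.87% in the others. The share of cluster 6 nuclei with a Tafa5 UMI was 27.9% in knockout sample 1 and 33.4% to 34.4% in the others.

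The genotype difference varied between the 7 clusters for Tafa2 (edgeR-adjusted p = 3.53e-05) and for Tafa5 (edgeR-adjusted p = 0.0226). Tafa2 was lower in the knockout in clusters 1 and 2, and its difference was near 0 in cluster 6, which Tafa1 and Tafa2 lead. The test includes cluster 6, so for Tafa2 it cannot tell a varying difference from the placing of nuclei. Tafa5 was higher in the knockout in cluster 2.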

How the results depend on the processing

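Tafa2 stayed called in all 12 alternatives over all nuclei (edgeR- or DESeq2-adjusted p of 5.41e-08 to 0.0294), all 13 in clusters 1 and 2, and all 10 between clusters. The alternatives between clusters all include cluster 6. Fixed cluster shares moved the all-nuclei log2 values to 0.20 for Tafa1, -0.34 for Tafa2 and 0.061 for Tafa5. The replicate block brought Tafa1 (-0.65) and Tafa2 (-0.42) in cluster 3 past the threshold and changed no other call of the 3 genes. For Tafa5 in cluster 7 it gave a log2 fold change of 0.00164, which was not called. Calls over all genes were 1344 with the block and 1215 with DESeq2 over all nuclei (732 as reported), and with the block 652 in cluster 3, 253 in cluster 6 and 255 in cluster 7 (400, 82 and 109 as reported). Pairing by number, chosen after the data were seen, gave adjusted p of 0.562, 0.750 and 0.375 for the odds ratios of Tafa1 with Tafa2, Tafa1 with Tafa5 and Tafa2 with Tafa5. With clusters 1 and 2 together 915 genes were called, and Tafa5 was 0.30 and not called.

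Leaving out 1 sample gave 263 to 994 calls over all nuclei, 335 to 647 in cluster 1, 192 to 438 in cluster 3, 315 to 539 in cluster 4, 101 to 189 in cluster 5, 51 to 148 in cluster 6, 63 to 142 in cluster 7 and 686 to 1171 between clusters. Log2 fold changes of Tafa1 ranged from -0.82 to -0.35 over all nuclei, -0.21 to 0.43 in cluster 1, -0.23 to 1.01 in cluster 2, -1.36 to 0.11 in cluster 4, -0.96 to 0.23 in cluster 5 and -0.52 to 0.043 in cluster 7. Tafa1 in cluster 3 ranged from -0.99 to -0.42. Those of Tafa2 ranged from -1.10 to -0.36 in cluster 4, -0.65 to 0.070 in cluster 5, -0.23 to 0.0087 in cluster 6 and -0.34 to 0.017 in cluster 7. Those of Tafa5 ranged from 0.35 to 0.54 in cluster 2, 0.095 to 0.26 in cluster 6, -0.22 to 0.03 in cluster 5 and -0.067 to 0.067 in cluster 7, and its adjusted p between clusters from 0.00388 to 0.217. The ratio of odds ratios for Tafa1 with Tafa5 ranged from 0.939 to 1.19. Of the 5 genes most like each member, knockout profiles shared 1 (Tafa1), 2 (Tafa2) and 1 (Tafa5), and Spearman's rank correlation 0, 1 and 0. The cause of these changes was not tested.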
